A study of Mus musculus with 23 samples.

Results

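The acute-phase gradient was examined in the livers of 9 tumor-bearing mice, 9 of the 23 libraries of the series. Each of these livers received an acute-phase index, the mean of log2(RPKM + 1) over the serum amyloid A genes Saa1 and Saa2, the orosomucoid genes Orm1 and Orm2, and Lcn2, which encodes lipocalin 2. RPKM is a read count scaled to the length of the gene and to the total of the library. Every other gene with at least 10 counts in at least 5 of the 9 livers was then compared with the index, which left 16201 genes. The livers were ordered by, and the index was chosen from, the measured levels of these 5 genes, so their values are given as a description and were not tested.

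All animals were male BALB/c mice, 4 to 6 weeks old at the start, without any stated genetic change. The pre-metastatic livers came from mice in which CT26 cells, a colon carcinoma line derived from this strain, had been placed in the serosa of the cecum, and the tissue was taken 3 weeks later. The primary tumor of each of the 9 mice was also sequenced. Control livers came from 5 sham-operated mice that had no tumor. Poly(A) RNA of whole tissue was sequenced, 1 library per mouse and tissue, and CT26 is a single cell line. No batch, date, or litter is given in the labels, so effects of these cannot be told apart from differences between mice.

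In the acute-phase response, cytokines that reach the liver, IL-6 and IL-1 above all, switch the protein output of hepatocytes. Hepatocytes then secrete large amounts of serum amyloid A, orosomucoid, haptoglobin, hemopexin, and fibrinogen, while the output of the negative acute-phase proteins, such as albumin and transthyretin, usually declines. IL-6 acts through the receptor subunit gp130 and the transcription factor STAT3, and C/EBP and NF-kappaB factors act at many of the same promoters.

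The liver libraries held between 44587556 and 79773163 counts. The liver label was checked against hepatocyte markers. Alb was between 15822 and 46034 RPKM in the 14 livers and at most 173 RPKM in the 9 tumors, and Ttr, Apoa1, Apob, and Serpina1a were also lower in every tumor than in every liver. The total count had a Spearman rho of 0.15 with the index (exact permutation p = 0.708, adjusted over 5 technical measures 0.708), a Pearson r of 0.44 (exact permutation p = 0.241), and an r of 0.41 without mice M10 and M2, whose index was farthest from the median. The TMM factor, which scales each library in the slopes used here, had a rho of -0.65 (exact permutation p = 0.0666, adjusted 0.166), an r of -0.64 (exact permutation p = 0.0634), and an r of -0.75 without these 2 mice. Its part in the slopes was not tested. The number of genes detected had a rho of 0.20 and the clock index, the scaled level of Dbp, Per3, and Ciart less that of Arntl, Npas2, and Clock, one of -0.30 (exact permutation p = 0.613 and 0.437, both 0.708 adjusted). The r of these 2 measures was 0.18 and -0.39 (exact permutation p = 0.648 and 0.279), and -0.04 and 0.21 without M10 and M2. The last of the 5 measures, the percent of counts in the index genes, is built from the index genes themselves. Its rho of 0.97 is therefore no test, but it entered the adjustment, so the adjusted p of the TMM factor depends on it.

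The index covered a range of 2.47 log2 units among the pre-metastatic livers. It was 9.64 in mouse M10, 9.81 in M2, 10.18 in M5, 11.03 in M4, 11.30 in M12, 11.34 in M6, 11.45 in M1, 11.63 in M8, and 12.11 in M7. In the control livers it lay between 5.30 in C5 and 8.69 in C1, so the groups did not overlap. M10, M2, and M5 formed the lower end, the next 5 mice lay between 11.03 and 11.63, and M7 stood highest.

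Saa1 and Saa2 encode the secreted serum amyloid A proteins that bind high-density lipoprotein. In the order of the index from M10 to M7, Saa1 was at 1544, 3229, 3164, 6172, 5492, 5514, 5584, 9676 and 10619 RPKM, against 34.2 to 1273 RPKM in the control livers. Saa2 was at 631, 1829, 1918, 5100.1, 4156, 5096, 4296, 9249 and 10433 RPKM in the same order and at 13.96 to 473 RPKM in the controls. The highest pre-metastatic liver thus held 6.88 times the Saa1 and 16.5 times the Saa2 of the lowest.

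Orm1 and Orm2 encode alpha-1-acid glycoprotein, a plasma protein that binds basic drugs. Orm1 ranged from 1628 to 4919 RPKM with a median of 3359.6, and Orm2 from 189 to 1809 RPKM with a median of 1149.7. The controls held 259.96 to 995 RPKM of Orm1 and 14.4 to 45.0 RPKM of Orm2. Lcn2, whose product withholds bacterial siderophores, ranged from 314 to 1709 RPKM with a median of 734. Of the 5 genes, Lcn2 was the only one whose groups overlapped, since control C1 held 427 RPKM and M2 held 314. Among the 9 livers the 10 pairs of index genes had Spearman rho between 0.68 and 0.97 and Pearson r between 0.683 and 0.996, the closest pair by r being Saa1 with Saa2. Together the 5 genes took between 0.416% and 2.56% of all counts of a pre-metastatic liver.

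**Figure D1:**
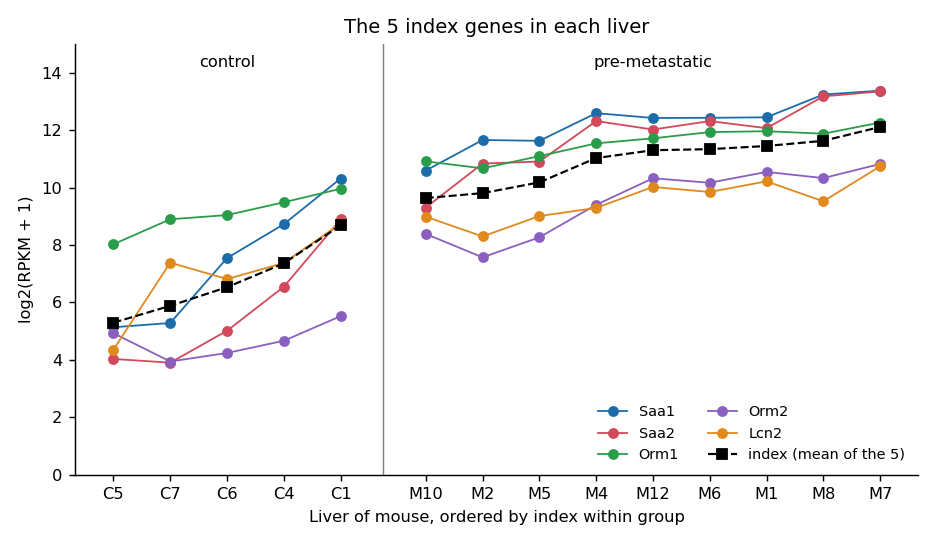
log2(RPKM + 1) of the 5 index genes (colored points) and their mean, the acute-phase index (black squares), in the 5 control and 9 pre-metastatic livers, each group ordered by the index. Lines only join the points of a gene. The index of every pre-metastatic liver, 9.64 to 12.11, lies above that of every control liver, 5.30 to 8.69.

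The Saa and Orm genes are close copies, and their single values depend on how reads were divided between them. Of the stretches of 50 bases in the annotated transcripts of Saa1, 31.5% also occur in another Saa gene, and of those of Orm1, 20.4% occur in another Orm gene. Saa1 and Saa2 lie on chromosome 7 and are read in opposite directions, and the 250 bases before their RefSeq starts were 94.8% identical in an alignment of 251 columns. The sequences are shown because these genes set the order of the livers, cut where the transcripts of the authors' table or of the GENCODE annotation begin. They are taken from the RefSeq promoter table of build GRCm38.p6, at chr7:46743072-46743230 (minus strand) and chr7:46751583-46751768 (plus strand), and capitals mark the C/EBP letters TTGCNNAA, searched on both strands.
Saa1: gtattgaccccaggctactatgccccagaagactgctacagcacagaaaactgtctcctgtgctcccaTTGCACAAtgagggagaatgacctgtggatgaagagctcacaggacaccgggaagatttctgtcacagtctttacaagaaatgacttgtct
Saa2: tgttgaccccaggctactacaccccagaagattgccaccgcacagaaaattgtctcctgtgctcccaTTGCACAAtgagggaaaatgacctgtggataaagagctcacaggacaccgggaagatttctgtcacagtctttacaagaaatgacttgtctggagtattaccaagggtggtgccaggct
Both carried TTGCACAA, from position -182 to -175 of Saa1 and from -183 to -176 of Saa2, counted from the start. Windows of 250 bases before Orm2 and Lcn2 also held a match, and the letters occurred in 9.56% of all 32851 promoter windows of this length. Orm1 has no entry in the RefSeq promoter table and was not searched. A match is a description of the letters and not a bound site.

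The first question was how many liver genes followed the index. With an exact Spearman test of log2(RPKM + 1) over all 362880 orders of the 9 livers, 0 genes (0%) passed at an adjusted p of 0.05, the smallest adjusted p being 0.340. At an unadjusted exact p under 0.01 there were 366 genes (2.26%), and under 0.05 there were 1681. Of the 1681, 373 had a positive and 1308 a negative rho on RPKM. When the index values were reassigned to the livers in 99 other orders, the count under 0.01 was between 18 and 857 with a median of 95. Counting the observed order, 9 of 100 orders gave at least 366 genes, so the number did not stand beyond the 0.05 threshold. The median rho of all genes was -0.20 on RPKM and 0 on TMM-normalized values, a scale that allows for the share of counts taken by the index genes and other abundant transcripts. On that scale 497 genes had an unadjusted exact Spearman p under 0.01.

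The size of each relation was taken from edgeR's quasi-likelihood test of the counts, as a slope in log2 units per unit of the index, with TMM normalization. By this test 2 genes rose with the index at a Benjamini-Hochberg adjusted p of 0.05 (0.0123% of the genes tested) and 0 fell (0%). At an unadjusted p under 0.05, 977 genes had a positive slope (6.03%) and 748 a negative slope (4.62%). DESeq2 called 262 genes higher (1.62%) and 73 lower (0.451%), and limma-trend called 7 higher and 0 lower. The genes and lists that follow are described by their slopes with SE, and, except for the 2 called genes, edgeR did not call them. Adjusted p-values given beside slopes are those of edgeR over all genes tested.

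Dnajc12 and Cpne8 were the 2 genes called. Dnajc12, on chromosome 10, encodes a J-domain co-chaperone. It was at 44.1, 41.8, 78.8, 92.3, 97.1, 107, 132, 184 and 139 RPKM from M10 to M7, and at 10.4 to 14.7 RPKM in the controls, so the groups did not overlap. The level was lowest in M10 and M2 and highest in M8. Its slope was 0.87 ± 0.10 (SE, n = 9), a 1.83-fold change per unit of the index, with an edgeR adjusted p of 0.0406. Spearman's rho was 0.97 (exact permutation p = 0.000165, adjusted over all genes 0.340), Pearson's r was 0.93 (exact permutation p = 0.000331), and r without M10 and M2 was 0.79 (exact permutation p = 0.0335).

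Cpne8, on chromosome 15, encodes a copine, a calcium-dependent protein that binds phospholipids. It was at 1.60, 1.81, 2.42, 2.92, 3.59, 3.22, 3.18, 3.58 and 4.05 RPKM in the order of the index and at 0.344 to 0.924 RPKM in the controls. The slope was 0.61 ± 0.07 (SE, n = 9; edgeR adjusted p = 0.0406). The rho was 0.88 (exact permutation p = 0.00308, adjusted 0.340), r was 0.98 (exact permutation p = 4.41e-05), and r without M10 and M2 was 0.95 (exact permutation p = 0.00238). Within the early and late clock phases of the livers, which were set from clock genes, rho was 0.96 for Dnajc12 and 0.87 for Cpne8. Both edgeR calls were lost when any of M1, M2, M5, M7, M8, M10, or M12 was left out, with adjusted p up to 0.302, and were kept without M4 (adjusted p = 0.0499) and without M6 (adjusted p of 0.0257 and 0.0260). The slopes stayed between 0.80 and 0.96 for Dnajc12 and between 0.59 and 0.64 for Cpne8.

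The next genes by edgeR p with a positive slope came from several pathways. Isyna1, the enzyme that makes inositol phosphate from glucose phosphate, was at 10.9 RPKM at the lowest, 39.3 at the median, and 92.8 at the highest, with a slope of 1.42 ± 0.18 (adjusted p = 0.0593). All 9 values lay above the highest control, 4.25 RPKM. Pld1, a phospholipase that makes phosphatidic acid, had a slope of 0.57 ± 0.08, Gpr39, a zinc-sensing receptor, one of 0.45 ± 0.07, and the predicted gene Gm7694 one of 0.70 ± 0.10. Prtn3, Jchain, Osmr, and Mvd completed these 10 and are described with their groups.

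**Figure D2:**
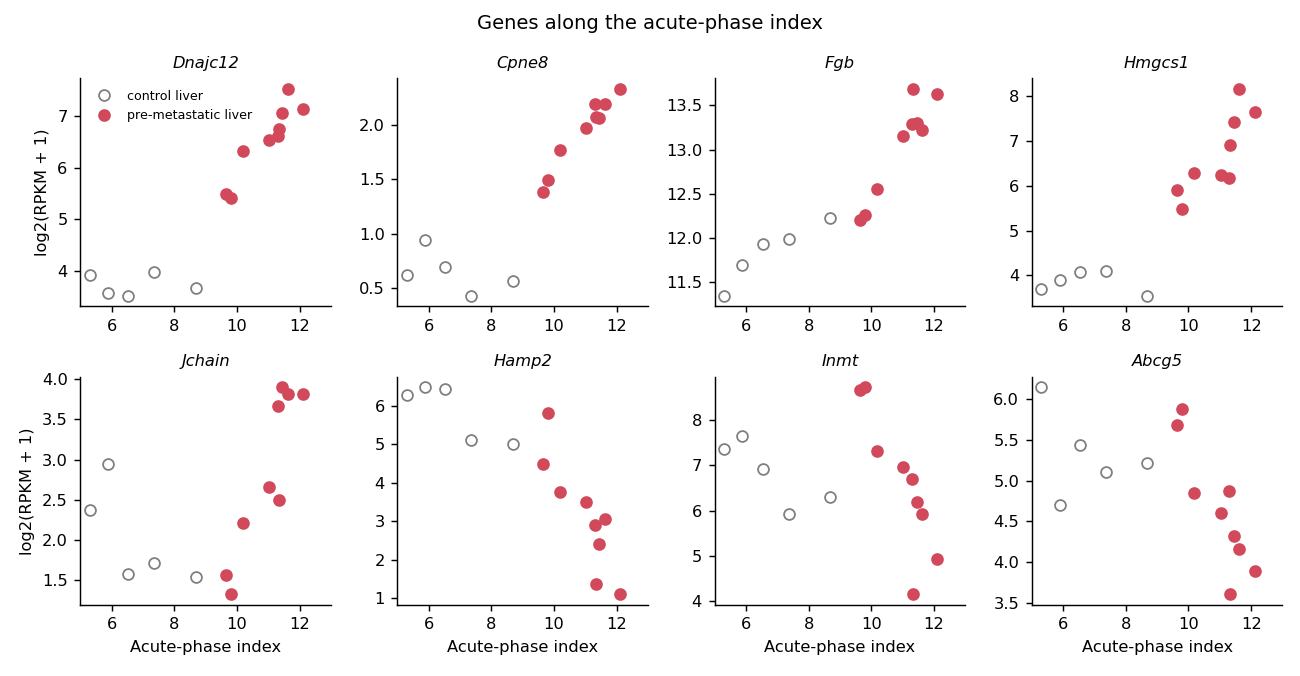
log2(RPKM + 1) of 8 genes (y axes, a separate scale for each) against the acute-phase index (x axes) in 9 pre-metastatic livers (filled) and 5 control livers (open). Dnajc12 and Cpne8 are the 2 called genes. Fgb, Hmgcs1, and Jchain are higher, and Hamp2, Inmt, and Abcg5 lower, at the upper end of the index, with slopes from -1.61 to 1.42.

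Other positive acute-phase proteins mostly had positive slopes. All 30 listed genes passed the count filter, 27 had a positive slope, and 19 had a positive slope with an unadjusted edgeR p under 0.05, against 6.03% of all genes. One, Hamp, had a negative slope at that level (4.62% of all genes), and Vnn1 and Saa4 had negative slopes with larger p. The median slope was 0.53, against 0 for all genes, and stayed between 0.44 and 0.63 when single mice were left out. DESeq2 called 15 of the 30 higher, against 1.62% of all genes. The index is itself made of acute-phase genes, so this list is not independent of the way the livers were ordered.

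The 3 chains of fibrinogen, the precursor of the fibrin clot, are encoded side by side on chromosome 3. Fgb was at 4733, 4907, 6024, 9105, 10035, 13208, 10092, 9537 and 12724 RPKM from M10 to M7, and Fga and Fgg ranged from 2541 to 8189.8 and from 3011 to 9107 RPKM. M10 and M2 held the least Fgb and M6 the most. The slopes were alike, 0.69 ± 0.14 for Fga, 0.71 ± 0.12 for Fgb, and 0.68 ± 0.12 for Fgg, with adjusted p between 0.127 and 0.155. Control livers held up to 4795 RPKM of Fgb, slightly more than M10.

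The promoters of Fga and Fgb are shown because these neighboring genes had similar slopes. They lie at chr3:83025903-83026075 (plus strand) and chr3:83049864-83050113 (minus strand) of GRCm38.p6, RefSeq table. Capitals mark the C/EBP letters and the STAT letters TTCNNNGAA, read on either strand, and the NF-kappaB letters had no match.
Fga: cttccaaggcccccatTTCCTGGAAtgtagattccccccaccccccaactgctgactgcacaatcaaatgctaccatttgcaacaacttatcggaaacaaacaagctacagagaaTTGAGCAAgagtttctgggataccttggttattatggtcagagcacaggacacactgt
Fgb: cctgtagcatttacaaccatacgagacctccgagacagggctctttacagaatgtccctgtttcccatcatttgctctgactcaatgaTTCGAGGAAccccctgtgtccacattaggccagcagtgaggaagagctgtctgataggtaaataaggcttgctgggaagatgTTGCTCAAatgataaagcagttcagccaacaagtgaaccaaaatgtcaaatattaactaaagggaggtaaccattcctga
Each held 1 match to the STAT letters, which 7.02% of all promoter windows hold, and 1 to the C/EBP letters. No match to either was found in the 250 bases before Fgg, whose slope was similar.

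Inhibitor heavy chains, pentraxins, and heme carriers followed. Itih4 and Itih3, heavy chains of the inter-alpha-trypsin inhibitor family that stabilize hyaluronan matrix, had slopes of 0.60 ± 0.10 (adjusted p = 0.127) and 0.65 ± 0.12 (adjusted p = 0.136). Apcs, serum amyloid P component, ranged from 1381 to 4402 RPKM with a slope of 0.66 ± 0.11 (adjusted p = 0.135). Its relative Crp, C-reactive protein, which responds little in mice, ranged only from 193 to 377 RPKM with a slope of 0.18 ± 0.10 (adjusted p = 0.562). Hp, haptoglobin, and Hpx, hemopexin, which bind free hemoglobin and heme, had slopes of 0.58 ± 0.13 and 0.57 ± 0.13. The leucine-rich glycoprotein Lrg1, Lbp, which hands bacterial lipopolysaccharide to CD14, the fibrinogen-like Fgl1, and the metalloreductase Steap4 had slopes of 0.41 ± 0.08, 0.48 ± 0.09, 0.49 ± 0.09, and 0.60 ± 0.13. The protease inhibitor Serpina3n and the metallothionein Mt1 varied more, with slopes of 0.77 ± 0.23 and 0.94 ± 0.34.

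The copies of the index genes did not all follow it. Saa3, the form made mainly outside hepatocytes, was at 28.3 to 107 RPKM and had a slope of 0.60 ± 0.19, and Orm3, at 2.02 to 9.70 RPKM, one of 0.67 ± 0.19. Saa4, the constitutive form, was at 264 to 557 RPKM in the pre-metastatic and 87.3 to 177 RPKM in the control livers. Its slope was -0.03 ± 0.13 (adjusted p = 0.954). Saa4 therefore stood above every control in each of the 9 livers, with no slope that could be told from 0 among them, and it shares none of the 50-base stretches with the other Saa genes.

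Negative acute-phase proteins had no common direction. Of 16 listed genes, 9 had a positive and 7 a negative slope, and 3 and 1 of them reached an unadjusted edgeR p under 0.05, against 6.03% and 4.62% of all genes. The median slope was 0.10, from 0.04 without M5 to 0.15 without M10. Trf, transferrin, had a positive slope of 0.37 ± 0.12 (adjusted p = 0.343), with 7925 to 13779 RPKM, and Ahsg, fetuin A, one of 0.31 ± 0.15 (adjusted p = 0.484). Apoa2, an apolipoprotein of high-density lipoprotein, and Ttr, transthyretin, had slopes of -0.19 ± 0.08 (adjusted p = 0.431) and -0.15 ± 0.07 (adjusted p = 0.499).

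Hepcidin was the only positive acute-phase protein of the list with a negative slope at an unadjusted p under 0.05. Hamp encodes hepcidin, the hormone that triggers degradation of the iron exporter ferroportin, and IL-6 through STAT3 and BMP6 through SMAD factors are its known inducers. Hamp was at 888, 651, 1121, 1135, 68.5, 76.5, 138, 337 and 29.3 RPKM from M10 to M7, and at 2010.03 to 5461 RPKM in the controls. Every pre-metastatic liver lay under every control, and M12, M6, M1, and M7 held far less than the others. The slope was -1.43 ± 0.54 (adjusted p = 0.409). The copy Hamp2 was at 21.5, 54.5, 12.53, 10.3, 6.44, 1.58, 4.32, 7.39 and 1.15 RPKM in the same order and had a slope of -1.61 ± 0.31 (adjusted p = 0.154). Of the 50-base stretches in their transcripts, 16.6% of those of Hamp also occur in Hamp2.

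Bases before the Hamp start are shown because its slope and that of Fga or Fgb, which hold the same STAT letters, differed in sign. The stretch is chr7:30944033-30944279 (minus strand, GRCm38.p6, RefSeq table), and capitals mark the STAT letters as above and the SMAD letters GGCGCC, which 9.59% of windows hold.
Hamp: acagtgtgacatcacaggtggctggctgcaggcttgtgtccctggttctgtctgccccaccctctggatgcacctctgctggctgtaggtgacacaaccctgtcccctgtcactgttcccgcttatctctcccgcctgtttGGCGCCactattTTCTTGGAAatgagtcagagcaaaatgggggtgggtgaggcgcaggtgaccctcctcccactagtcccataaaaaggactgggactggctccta
It held 1 match to each, the STAT letters from position -97 to -89 and the SMAD letters from -109 to -104. The Hamp2 window was 89.8% identical and held the STAT match but not GGCGCC, and its slope had the sign of that of Hamp.

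Among other iron genes, Bmp6 had a slope of -0.59 ± 0.16 (adjusted p = 0.273) at 0.335 to 1.35 RPKM. Slc40a1, ferroportin itself, had one of -0.43 ± 0.13 (adjusted p = 0.327). The importers Slc39a14, a zinc and iron carrier, and Slc11a2 had slopes of 0.37 ± 0.15 (adjusted p = 0.416) and 0.40 ± 0.10 (adjusted p = 0.216). Over the 17 iron genes, 2 reached an unadjusted p under 0.05 with a positive and 3 with a negative slope (6.03% and 4.62% of all genes).

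The receptors and signal carriers of the response had no common direction. Of 25 genes of the IL-6 family and STAT3, 12 had a positive and 13 a negative slope, and 3 and 2 reached an unadjusted edgeR p under 0.05, against 6.03% and 4.62% of all genes. Osmr, the oncostatin M receptor, had the smallest p of the list and was at 1.09, 1.06, 1.72, 1.84, 3.03, 2.73, 2.05, 2.30 and 3.91 RPKM from M10 to M7 with a slope of 0.78 ± 0.12 (adjusted p = 0.113). All of these values lay above the highest control, 0.761 RPKM. Lifr, the receptor of leukemia inhibitory factor, had the opposite sign, -0.39 ± 0.16 (adjusted p = 0.425).

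Stat3 itself was at 35.1 to 49.2 RPKM, above all controls, with a slope of 0.17 ± 0.08 (adjusted p = 0.461), and Socs3, the feedback inhibitor that STAT3 induces, at 14.3 to 32.6 RPKM with a slope of 0.18 ± 0.15 (adjusted p = 0.694). Il6st, which encodes gp130, had a slope of -0.09 ± 0.11 (adjusted p = 0.793). Gadd45b, a stress gene, and Cebpa, the C/EBP factor of resting hepatocytes, had slopes of 0.84 ± 0.34 and -0.37 ± 0.16. None of these passed the threshold after adjustment.

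In the IL-1, TNF, and NF-kappaB list, 27 of 28 genes were tested, and 2 positive and 1 negative slopes reached an unadjusted p under 0.05 (6.03% and 4.62% of all genes). The median slope was 0.03, and -0.02 without M10 and M2. Tnfrsf1a, the main TNF receptor, had a slope of 0.37 ± 0.08 (adjusted p = 0.202), and Cxcl1, a neutrophil attractant, one of 0.50 ± 0.17 (adjusted p = 0.348). Cxcl1 was at 50.2 to 149 RPKM against 2.11 to 13.95 in the controls. The kinase Ripk2 had a slope of -0.29 ± 0.12 (adjusted p = 0.434). Interferon-stimulated genes had 19 negative and 5 positive slopes, with 2 negative ones at an unadjusted p under 0.05 (4.62% of all genes), and their median of -0.10 became 0.01 without M5 and -0.43 without M10 and M2.

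Cxcl9, a chemokine induced by interferon gamma, was at 4.99, 4.59, 30.7, 4.36, 2.51, 2.44, 2.09, 2.15 and 1.49 RPKM from M10 to M7. M5 alone was far above the rest, and the 8 others went from 4.99 RPKM in M10 to 1.49 in M7. The slope was -1.34 ± 0.39 (adjusted p = 0.293), and it was -0.59 without M5. Igtp, an interferon-induced GTPase, and Psmb8, an immunoproteasome subunit, had slopes of -0.44 ± 0.21 and -0.20 ± 0.09, and M5 was also highest for both. In M5 the T cell and cytotoxicity genes Cd8a, Cd8b1, and Gzmb were at 2.18, 1.35, and 9.35 RPKM, the highest of the 9 livers, and their part in these values was not tested.

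Complement and coagulation genes split by gene. Of 20 complement genes, 3 reached an unadjusted edgeR p under 0.05, all with positive slopes, against 6.03% of all genes. C3, the central component, had a slope of 0.38 ± 0.10 (adjusted p = 0.232), and C4bp, the C4b-binding protein, one of 0.17 ± 0.07 (adjusted p = 0.454). Among 20 coagulation genes, 5 reached it with a positive and 1 with a negative slope, against 6.03% and 4.62% of all genes. Cpb2, the fibrinolysis inhibitor, Serpinf2, the plasmin inhibitor, Kng1, kininogen, and F10 had slopes of 0.45 ± 0.10, 0.33 ± 0.09, 0.44 ± 0.18, and 0.21 ± 0.08, while Klkb1, plasma prekallikrein, had one of -0.24 ± 0.10.

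Genes of the secretory pathway and the unfolded protein response mostly had positive slopes, and 1 mouse, M7, carried a large share of them. Of 26 genes, 24 had a positive slope and 19 reached an unadjusted edgeR p under 0.05, against 6.03% of all genes, and the median slope was 0.33. Without M7 the median was 0.21, and without M2 it was 0.44. DESeq2 called 6 of the 26 higher (1.62% of all genes). By the exact Spearman test on RPKM, 3 of the 26 had a positive rho at an unadjusted p under 0.05, beside 373 of all 16201 genes. The median rho of the list was 0.475 on RPKM and 0.658 on TMM-normalized values, against -0.20 and 0 for all genes.

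Hspa5, the chaperone BiP of the endoplasmic reticulum, was at 261, 345, 413, 281, 410.2, 354, 357, 473 and 1162 RPKM from M10 to M7 and at 588 to 1279 RPKM in the controls. Only M7 reached the range of the controls, and the other 8 livers lay under it. Its slope was 0.62 ± 0.17 (adjusted p = 0.265), and 0.28 without M7. Creld2, a secreted stress marker of the same compartment, was at 274 RPKM in M7 and at most 61.6 in the others, and its slope of 1.01 ± 0.28 became 0.35 without M7.

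The degradation genes Dnajb9 and Syvn1 had slopes of 0.74 ± 0.17 (adjusted p = 0.212) and 1.04 ± 0.25 (adjusted p = 0.228), and the disulfide isomerase Pdia4 one of 0.51 ± 0.13 (adjusted p = 0.242). Ddit3, the stress factor CHOP, was at 1.62 to 14.3 RPKM with a slope of 0.90 ± 0.28 (adjusted p = 0.327). With M7 left out, the slope was 0.56 for Dnajb9, 0.57 for Syvn1, 0.26 for Pdia4, and 0.34 for Ddit3. M7 was also the liver with the highest index and the most counts, and the part of depth in these values was not tested.

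**Figure D3:**
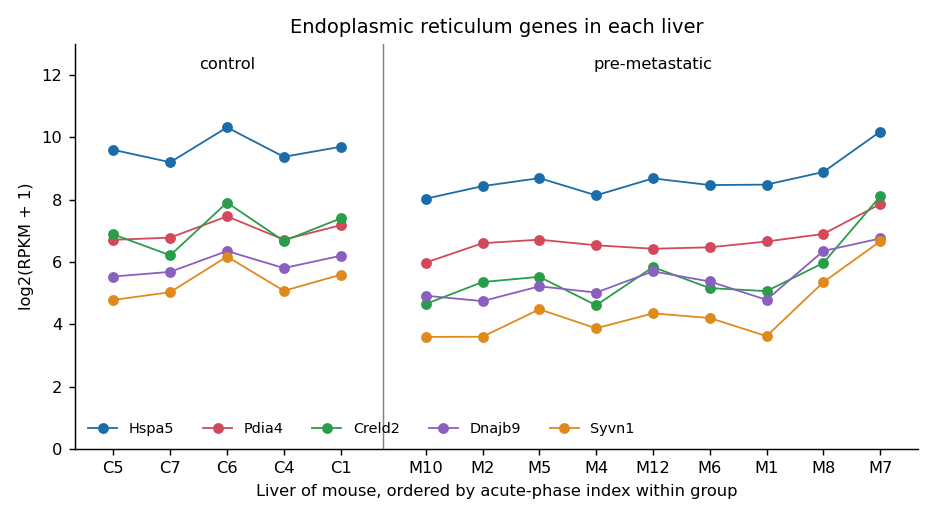
log2(RPKM + 1) of 5 endoplasmic reticulum genes in the control and pre-metastatic livers, each group ordered by the acute-phase index, with lines joining the points of a gene. Hspa5 is at 261 to 473 RPKM in 8 pre-metastatic livers and at 1162 RPKM in M7, within the control range of 588 to 1279.

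Genes of sterol and fatty acid synthesis mostly had positive slopes. In the joint list of 27 genes, 22 had a positive slope and 14 reached an unadjusted edgeR p under 0.05 with that sign, against 6.03% of all genes, and 1 with a negative sign. The median slope was 0.40, from 0.34 without M2 to 0.61 without M10, and DESeq2 called 7 of the 27 higher (1.62% of all genes). The list was divided into sterol and fatty acid genes after its values were seen. The 15 sterol genes all had positive slopes, 11 of them at an unadjusted p under 0.05, and of the 12 fatty acid genes 7 had positive slopes, 3 of them at that level. The difference between both parts was not tested.

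Hmgcs1, which makes the HMG-CoA that enters the mevalonate pathway, was at 59.2, 43.6, 76.9, 74.6, 71.5, 120.4, 172, 287 and 201 RPKM from M10 to M7 and at 10.6 to 16.1 RPKM in the controls. The groups did not overlap, and M8 was highest. Its slope was 0.98 ± 0.18 (adjusted p = 0.151). The next enzymes Mvk, Mvd, Idi1, and Fdps had slopes of 0.47 ± 0.12, 1.05 ± 0.16, 0.73 ± 0.20, and 0.69 ± 0.17, and Sqle, squalene epoxidase, one of 0.73 ± 0.28. Srebf2, the transcription factor that drives the pathway, had a slope of 0.37 ± 0.09 (adjusted p = 0.228).

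Fasn, fatty acid synthase, was at 17.7 to 113 RPKM with a slope of 0.70 ± 0.35 (adjusted p = 0.504). The sterol letters TCACNCCAC occurred in the 250 bases before Hmgcs1, from position -137 to -129, and in 1.05% of all windows.

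Drug-metabolizing genes mostly had negative slopes. Of 22 cytochrome P450 genes, 20 had a negative slope and 10 reached an unadjusted edgeR p under 0.05 with that sign, against 4.62% of all genes, and 1 with a positive sign. The median slope was -0.30, between -0.33 and -0.23 with single mice left out. It was -0.20 with the clock phase or the neutrophil score as a term and -0.11 without M10 and M2. DESeq2 called 1 of the 22 lower, against 0.451% of all genes. Cyp2a5, which oxidizes coumarin and nicotine, was at 18.8 RPKM at the lowest, 103 at the median, and 535 at the highest, with a slope of -1.35 ± 0.41 (adjusted p = 0.309). Cyp1a2, the caffeine demethylase, had a slope of -0.56 ± 0.17, Cyp2c50 one of -0.32 ± 0.09, and Cyp2a12 one of -0.27 ± 0.09.

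Cyp2b10, the classic target of the receptor CAR, was under every control at 0.0534 to 1.46 RPKM, with as few as 8 counts and a slope of -1.21 ± 0.38 (adjusted p = 0.327). Nr1i3, which encodes CAR, had a slope of -0.54 ± 0.22 (adjusted p = 0.447). Cyp3a11, the main drug-oxidizing P450 of mouse liver, ranged from 34.1 to 725 RPKM, also under every control, with a slope of -0.68 ± 0.33 (adjusted p = 0.4998). Over 22 nuclear receptors and hepatocyte factors, 5 reached an unadjusted p under 0.05 with a negative (4.62% of all genes) and 1 with a positive slope, among them Nr3c1, the glucocorticoid receptor (-0.22 ± 0.09), and Foxa1 (-0.36 ± 0.15).

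Inmt, an N-methyltransferase of indoles, had the smallest edgeR p of all negative slopes. It was at 405, 420.3, 159, 124, 103, 16.8, 71.5, 59.6 and 29.8 RPKM from M10 to M7, against 59.8 to 198 in the controls, with a slope of -1.42 ± 0.24 (adjusted p = 0.127). M10 and M2 held more than any control, and M6, M8, and M7 held less than the lowest. Aldh3a2, the fatty aldehyde dehydrogenase, had a slope of -0.97 ± 0.19 (adjusted p = 0.154), Plcg1, a phospholipase C, one of -0.30 ± 0.06, the calsyntenin Clstn3 one of -0.59 ± 0.12, and Asic5, an ion channel, one of -0.62 ± 0.12. The predicted genes Gm35570, Gm3839, and Gm36419, also among the 10 smallest p with a negative slope, had slopes of -0.76 ± 0.13, -1.37 ± 0.26, and -1.12 ± 0.23.

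Of 22 conjugation enzymes, 20 had a negative slope, 7 of them with an unadjusted p under 0.05 (4.62% of all genes), and the median was -0.27. Gstt1, a glutathione transferase, had a slope of -0.29 ± 0.07 (adjusted p = 0.207), and the glucuronosyltransferases Ugt2a3 and Ugt2b1 had slopes of -0.45 ± 0.14 and -0.58 ± 0.20. Of 21 bile acid genes, 18 had a negative slope and 7 reached that level (4.62% of all genes), and DESeq2 called 3 lower (0.451% of all genes). Their median slope of -0.15 became -0.08 without M10 and M2. Abcg5 and Abcg8 together form the pump that exports sterols into bile. Abcg5 was at 50.5, 57.7, 27.8, 23.2, 28.3, 11.2, 19.0, 16.9 and 13.8 RPKM from M10 to M7 and at 25.0 to 69.7 in the controls, and the slopes were -0.72 ± 0.15 for Abcg5 (adjusted p = 0.174) and -0.74 ± 0.17 for Abcg8 (adjusted p = 0.205). Abcc3, an export pump of the sinusoidal membrane, lay under every control, at 14.1 to 44.1 RPKM, with a slope of -0.52 ± 0.11, and Nr0b2, the repressor SHP, had one of -0.39 ± 0.15.

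Amino acid breakdown had 20 negative and 11 positive slopes among 31 genes, with 6 and 1 at an unadjusted p under 0.05 (4.62% and 6.03% of all genes), and their median of -0.08 became 0.01 without M7. Tdo2, tryptophan dioxygenase, Prodh and Aldh4a1, which break down proline, and Gpt, alanine aminotransferase, had slopes of -0.44 ± 0.13, -0.45 ± 0.13, -0.28 ± 0.09, and -0.31 ± 0.11. Cps1, the first enzyme of the urea cycle, was at 169 RPKM in M7 and at 419 at the median, with a slope of -0.14 ± 0.22 (adjusted p = 0.840).

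Fatty acid oxidation genes had 21 negative slopes of 25, with 2 at an unadjusted p under 0.05 (4.62% of all genes) beside 1 positive one, Fgf21. Their median of -0.14 became -0.07 without M10 and 0.00 without M10 and M2. Acot1, an acyl-CoA thioesterase, was under every control and had a slope of -0.76 ± 0.22 (adjusted p = 0.294), and Acaa2, a thiolase, one of -0.18 ± 0.10 (adjusted p = 0.519). Fgf21, a fasting hormone, had a slope of 1.19 ± 0.46 (adjusted p = 0.412) that rested on M7, with 30.1 RPKM against a median of 1.66, and was 0.00 without it. In the growth hormone and IGF list, Igfbp1, a binding protein induced by stress and fasting, was at 4.35 to 49.2 RPKM with a slope of 1.30 ± 0.24 (adjusted p = 0.151), Egfr had one of 0.30 ± 0.12, and the male-specific Cyp2d9 one of -0.33 ± 0.14. Among 19 genes of gluconeogenesis and 16 clock genes, 0 reached an unadjusted edgeR p under 0.05. DESeq2 called 0 of either list.

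**Figure D4:**
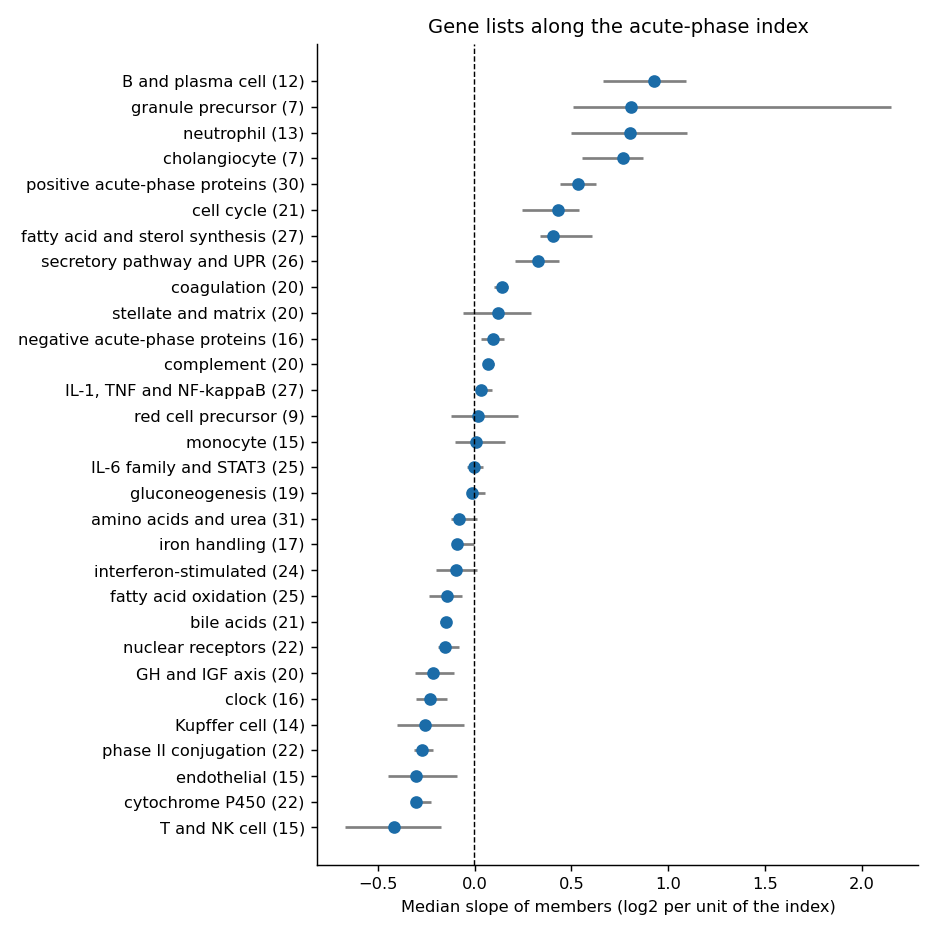
Median edgeR slope, in log2 per unit of the acute-phase index, of each gene list among the 9 pre-metastatic livers (points, with the number of genes tested in parentheses). Bars span the medians when each mouse is left out in turn, and the dashed line is the median of all 16201 genes. Positive acute-phase proteins are at 0.53, and cytochrome P450 genes at -0.30.

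Transcripts of antibody-making cells had some of the steepest slopes. Jchain, the joining chain of secreted antibodies, was at 1.96, 1.504, 3.63, 5.32, 11.7, 4.65, 13.9, 13.1 and 13.1 RPKM from M10 to M7 and at 1.91 to 6.70 RPKM in the controls, with a slope of 1.42 ± 0.20 (adjusted p = 0.0593). In bulk tissue, more or fewer cells of a type cannot be told apart from more or less RNA per cell. Mzb1, a chaperone of plasma cells, and Cd79a, of the B cell receptor, had slopes of 1.24 ± 0.36 (adjusted p = 0.293) and 1.01 ± 0.36 (adjusted p = 0.373), at no more than 2.31 and 3.13 RPKM. Of 12 B and plasma cell genes tested, 11 had a positive slope and 4 reached an unadjusted p under 0.05, against 6.03% of all genes. The median slope was 0.92, 0.49 with the neutrophil score as a term and 0.56 without M10 and M2. The summed level of the list's 13 genes was 60.4 to 116 RPKM in the 9 livers and 108 to 138 in the controls, most of it Sdc1, which hepatocytes also make, and none of the genes was at 0 in all 9.

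Immunoglobulin segments were added to the description after their values were seen. Of 64 segments that passed the filter, 63 had a positive slope and 43 of these an unadjusted p under 0.05 (6.03% of all genes), and the median slope was 1.70. Ighg2b, an IgG heavy chain, ranged from 0.935 to 27.2 RPKM, and Ighg1, another, from 0.941 to 217 RPKM. Their slopes were 1.72 ± 0.31 and 2.53 ± 0.83, beside 1.15 ± 0.30 for Igha, 0.87 ± 0.22 for Ighm, and 1.72 ± 0.34 for the light chain Igkc. Segments of 1 antibody come from the same cells and resemble one another in sequence, so they are not separate observations.

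Neutrophil markers pointed the same way with wide errors. All 13 tested of 18 had a positive slope, 2 at an unadjusted p under 0.05 (6.03% of all genes), and the median was 0.80. It lay between 0.50 without M2 and 1.10 without M7, and was 0.30 without M10 and M2. S100a8 and S100a9, the calprotectin chains, were at 2.35 to 51.9 and 4.11 to 62.0 RPKM with slopes of 0.96 ± 0.42 and 0.80 ± 0.41, and Padi4 one of 1.64 ± 0.54 at no more than 0.433 RPKM. The summed level of the list was 8.94 to 125 RPKM in the 9 livers and 7.69 to 19.4 in the controls, and none of its genes was at 0 in all 9. Neutrophils also make Lcn2. With the neutrophil score as a term, the median slope of the positive acute-phase proteins was 0.46. With Lcn2 left out of the index it was also 0.46, per unit of an index that covered 2.65 instead of 2.47 log2 units. The order of the 9 livers was the same with either index, so rho, 0.73 at the median of this list, could not differ.

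Prtn3, the granule protease proteinase 3, stood apart from its list. It was at 36.2, 26.8, 47.7, 79.9, 90.1, 88.7, 72.9, 109 and 96.8 RPKM from M10 to M7, and all of these values lay far above the controls, at 0.766 to 1.59 RPKM. Its slope was 0.85 ± 0.12 (adjusted p = 0.0593). Elane and Mpo, granule genes of the same precursor cells, reached only 3.97 and 4.67 RPKM, with slopes of 0.81 ± 0.42 (adjusted p = 0.519) and 0.79 ± 0.46 (adjusted p = 0.562).

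Markers of Kupffer cells, of sinusoidal endothelium, and of T and NK cells mostly had negative slopes. All 14 Kupffer cell genes did, 4 at an unadjusted p under 0.05 (4.62% of all genes). These 4 include Slc40a1, which was also counted among the iron genes. The summed level of the 14 genes was 311 to 879 RPKM against 209 to 359 in the controls. Their median slope of -0.25 became -0.05 without M10. Marco, a scavenger receptor, was at 20.5 RPKM in M10 and at most 4.35 in the others, and its slope of -1.12 ± 0.36 became -0.01 without M10. Spic, Clec1b, and Vsig4 had slopes of -0.52 ± 0.18, -0.54 ± 0.21, and -0.31 ± 0.16. All 15 sinusoidal endothelial genes had negative slopes, and 0 of them reached an unadjusted edgeR p under 0.05 or a DESeq2 adjusted p under 0.05. Their median of -0.30 became -0.09 without M7 and -0.76 without M10 and M2. T and NK cell genes had 13 negative slopes of 15 tested, with Cd3e at -1.09 ± 0.37 (adjusted p = 0.353). Without M5, which held the most Cd8a, Cd8b1, and Gzmb, the median of that list was -0.17 instead of -0.41, and it was -1.20 without M10 and M2.

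Of 15 monocyte markers, 8 had a positive slope, 3 of them at an unadjusted p under 0.05, and 7 a negative slope, 1 of them at that level, against 6.03% and 4.62% of all genes. Vcan, F13a1, and Itgam had positive slopes of 1.18 ± 0.31, 0.88 ± 0.31, and 0.80 ± 0.29, and Adgre1, the macrophage marker F4/80, a negative one of -0.49 ± 0.21. Vcan was at no more than 0.205 RPKM, with as few as 14 counts, and M1 held the most Vcan, F13a1, and Itgam. The r of these 4 genes was 0.70, 0.55, 0.55, and -0.66, and without M10 and M2 it was 0.40, 0.25, 0.30, and -0.66. Of 20 stellate cell and matrix genes, 12 had a positive slope, 5 of them at an unadjusted edgeR p under 0.05 (6.03% of all genes). The other 8 had a negative slope, 0 of them at that level. DESeq2 called 3 of the 20 higher (1.62% of all genes) and 0 lower. The list's median slope of 0.12 became -0.06 without M10 and -0.35 without M10 and M2. Among the 20 genes, Thbs1, thrombospondin 1, had a slope of 0.98 ± 0.22 (adjusted p = 0.202). Col1a2 had one of 0.66 ± 0.19 (adjusted p = 0.293), and Fn1 one of 0.30 ± 0.12 (adjusted p = 0.431). Of 10 bile duct genes, 7 were tested, and all 7 had a positive slope, with a median of 0.77. An unadjusted edgeR p under 0.05 was reached by 2 of them (6.03% of all genes). Spp1, osteopontin, and Sox9, both found in bile duct cells, had slopes of 0.71 ± 0.16 (adjusted p = 0.204) and 0.96 ± 0.24 (adjusted p = 0.235). The summed level of the 10 bile duct genes was 40.9 to 139.7 RPKM, against 16.8 to 24.4 RPKM in the controls. All 21 cell cycle genes had positive slopes with a median of 0.43, 2 of them at an unadjusted p under 0.05 (6.03% of all genes), and without M10 and M2 the median was -0.01.

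Beside Dnajc12, the strongest rank orders belonged to 3 genes that were weakly expressed or varied little, named here after their values were seen. Cpt1c had the largest rho, 0.98 (exact permutation p = 4.96e-05, adjusted 0.340), with r of 0.86 (exact permutation p = 0.00125) and r of 0.75 without M10 and M2, at 0.0378 to 0.235 RPKM and as few as 8 counts. Egln2, an oxygen-sensing prolyl hydroxylase, had a rho of -0.97 (exact permutation p = 0.000165, adjusted 0.340) and r of -0.92 (exact permutation p = 0.00131), -0.94 without the same 2 mice, over a range of only 27.0 to 35.5 RPKM, and its TMM-based slope was -0.08 ± 0.06. Nrtn, a neurotrophic ligand, had a rho of -0.97 (exact permutation p = 0.000165, adjusted 0.340), with r of -0.91 (exact permutation p = 0.000273) and -0.91 without them.

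A further question was whether the primary tumor of the same mouse carried a matching signal. The tumors, joined to the livers by mouse number, were not used to set the index. Of 17778 tumor genes, 0 passed the exact Spearman test at an adjusted p of 0.05 (0%), and edgeR called 0 higher (0%) and 0 lower (0%). At an unadjusted edgeR p under 0.05, 380 had a positive (2.14%) and 407 a negative slope (2.29%), and 919 reached an exact Spearman p under 0.05. DESeq2 called 21 tumor genes, 12 higher and 9 lower.

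Of 24 cytokine and growth factor genes, 20 could be tested in the tumors, and 4, Il17a, Il22, Csf3, and Tslp, were under the count filter. Il6, the main inducer of acute-phase genes, was at 0.407 to 2.61 RPKM in the tumors, with a slope of -0.12 ± 0.26 per unit of the liver's index (adjusted p = 0.972). Il11, of the same family, was at 4.10 RPKM at the lowest, 7.29 at the median, and 27.5 at the highest, with a slope of 0.60 ± 0.27 (adjusted p = 0.947). Osm, oncostatin M, had a slope of 0.18 ± 0.34, and the chemokines Cxcl1 and Cxcl2 slopes of 0.38 ± 0.43 and 0.57 ± 0.55.

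Csf1, the macrophage growth factor, was the only one of the 20 with an unadjusted edgeR p under 0.05. It was at 35.5 to 66.0 RPKM, with a slope of -0.18 ± 0.08 (adjusted p = 0.947). Its rho was -0.70 (exact permutation p = 0.0433, adjusted 0.788), with r of -0.64 (exact permutation p = 0.0587) and r of -0.72 without M10 and M2. No cytokine of the list was called in the tumors by edgeR, and with an SE of 0.27 the slope of Il11 could not be told from 0.

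**Figure D5:**
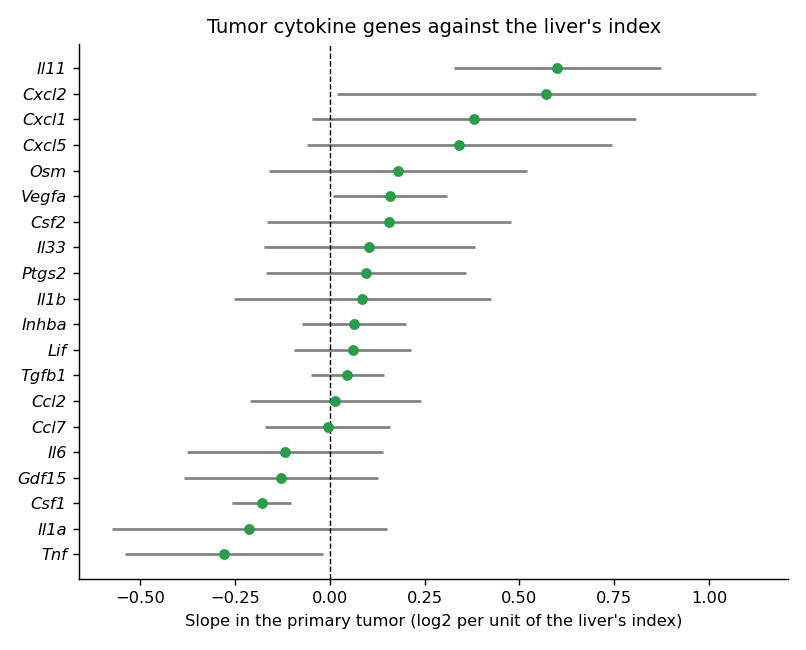
edgeR slope of 20 cytokine and growth factor genes in the 9 primary tumors, in log2 per unit of the acute-phase index of the same mouse's liver (points, bars are 1 SE). Il11 is at 0.60 ± 0.27 and Csf1 at -0.18 ± 0.08, and no adjusted p is under 0.05.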

How the data were processed

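RNA sequencing of 9 pre-metastatic livers, 5 control livers and the 9 primary tumors was analysed, with groups taken from the sample labels. The authors aligned reads to the mouse genome build mm10 with HISAT2 and counted them per gene with HTSeq 0.6.0, per the submitters' processing notes, and deposited a read count and an RPKM value for each of 48897 genes in each library. The annotation and the strand setting of the counting are not given in the sources used here. All 46 columns of per-sample values were matched to a sample, and 0 were left unmatched.

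The acute-phase index was computed from the deposited RPKM values with a pseudocount of 1. The filter kept every gene that reached 10 counts in 5 or more of the 9 libraries. This gave 16201 genes in liver, where the 5 index genes were left out, and 17778 in tumor, where they were not. Spearman's rho was tested over all 362880 orders (two-sided), and slopes were fitted to the counts, as deposited, by the quasi-likelihood test of edgeR 4.0.16 with TMM factors. The SE of a slope was derived from this test, as the size of the slope divided by the square root of its F statistic. Adjusted p-values are by Benjamini-Hochberg over all genes tested in a tissue, and for the technical measures over the 5 measures. limma 3.58.1, DESeq2 1.42.0 (R 4.3.3), other filters, indices and terms, and leaving out mice were alternatives. Python 3.11.15, numpy 2.4.6, scipy 1.17.1, pandas 2.3.3 and matplotlib 3.10.9 were used, and the scripts were tested on simulated data. A late clock phase, found in 4 of the 9 livers, was read from clock genes, since no collection time is in the labels.

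The members and gene lists were chosen with earlier results of these data known. Named genes were the 5 index genes, the 10 smallest edgeR p in each direction at a mean of at least 1 RPKM, up to 5 members of each list by edgeR p with members needed to describe its roles, 5 tumor cytokines by exact p, and Saa and Orm copies. Some genes that this rule names are not reported here. Promoters came from a RefSeq table of GRCm38.p6. Each sample is 1 mouse, and p-values measure the spread between mice.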

Additional observations from a re-analysis of the deposited data

Results flagged for a closer look

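Of 152 genes and measures compared among the 9 livers, 13 had a highest or lowest liver whose gap to its neighbor, divided by the whole range of log2(RPKM + 1), passed Dixon's critical value for 9 samples. Chance alone flags about 1 in 20 groups, and the values are given without weighing.

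M5 was the highest liver for 5 genes. Cxcl9 was at 30.7 RPKM in M5 and at 1.49 to 4.99 in the others (gap 0.655 of the range), and Igtp at 118 against 19.9 to 47.7 (0.513). Cd8a and Cd8b1, the chains of the CD8 coreceptor of cytotoxic T cells, were at 2.18 against 0.0794 to 0.408 RPKM (0.753) and at 1.35 against 0.0315 to 0.251 (0.765). Gzmb, granzyme B, was at 9.35 against 0.274 to 2.26 RPKM (0.551).

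M7 stood apart for 5 genes. It was highest for Hspa5, with 1162 RPKM against 261 to 473 (0.602), Pdia4, with 231 against 62.1 to 118 (0.509), Creld2, with 274 against 23.4 to 61.6 (0.611), and Fgf21, with 30.1 against 0.811 to 4.90 (0.585). It was lowest for Cps1, with 169 RPKM against 357 to 683 (0.535).

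Single genes set 3 more livers apart. Itgam, the CD11b chain of myeloid cells, was at 4.50 RPKM in M1 and 0.570 to 1.78 in the others (0.543). Marco was at 20.5 RPKM in M10 and 1.07 to 4.35 in the others (0.595). Krt19, a keratin of bile duct cells, was at 16.3 RPKM in M12 and 1.29 to 5.22 in the others (0.506).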

How the results depend on the processing

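The number of genes edgeR called along the index, 2 in the fit reported, was the value that moved most. It was 6 with no filter on low counts, 335 with DESeq2, 7 with limma-trend, 1 with an index without Lcn2, 0 with Saa1 and Saa2 alone, and 9 with Orm1 and Orm2 alone. It was 0 with the clock phase, the neutrophil score or the red cell precursor score as a term, 0 without M10 and M2, and between 0 and 11 when single mice were left out. Dnajc12 and Cpne8 kept positive slopes in all of these fits. The 366 genes with an exact Spearman p under 0.01 became 186 within clock phases, 563 with Pearson's r, 52 without M10 and M2, and 119 to 508 with single mice left out. In tumors DESeq2 called 21 genes where edgeR called 0. The cause of these shifts was not tested, and the fits that left out mice also had fewer samples.

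Over all alternatives, 2536 slopes of named genes kept their sign and their side of the threshold, 90 passed it in the alternative alone, 25, all of Dnajc12 or Cpne8, no longer passed it, and 9, of 3 genes, changed sign. That of Saa4, close to 0, was 0.071 with the clock phase and 0.11 with the neutrophil score as a term, 0.16 without M10 and M2, and between -0.153 and 0.0156 with single mice left out. Fgf21 lay between -0.000334 and 1.83 and Cps1 between -0.245 and 0.0755 with single mice left out, in both cases with the sign changed without M7. No paired analysis was possible because each comparison lies within 1 group of mice, and livers and tumors were already joined by mouse. With 9 mice and an index range of 2.47, slopes of genes with few counts have wide errors.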
